A study of Mus musculus with 8 samples.

Results

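H3K9me3, a methylation mark of histone H3, was mapped by ChIP-seq in normal mouse colon crypts, and the data described here are its level relative to input DNA at every peak of the series. The 3 WT H3K9me3 libraries and the 1 WT input library were used, which are 4 of the 8 samples; the other 4 are 3 H3K9me3 libraries and 1 input library from mice that lack *Smarcad1* in the intestinal epithelium through *Vil-cre* (KO). WT mice were wildtype C57BL/6 animals, and the study's methods state that all mice were male and kept under specific opportunistic pathogen-free conditions. The material of both genotypes was a whole crypt isolate of the colon, fixed with formaldehyde and not sorted, so cells of other types may be present. The antibody was ab8898 from Abcam. Input is chromatin taken before the immunoprecipitation. The labels name the 3 WT libraries as replicates, and the animal or pool of animals behind each was not given in the sources used here, so the SD values measure only the spread between these libraries.

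All 53761 peaks of the series were kept as members. The authors called them once, with all 6 ChIP libraries of both genotypes against both inputs, so that a listed peak can be low in WT, and an excess over input at a peak is part of how it was chosen. The ChIP values are log2 read counts brought by the authors to one common distribution, while the input values are log2 read counts without scaling. The scales therefore differ, and the median difference of ChIP minus input was 0.82, 0.83 and 0.80 on the log2 scale in WT replicates 1, 2 and 3. Each library's difference from input was instead ranked over all peaks and is given as a percentile, where 50 marks the middle peak and 100 the peak with the most ChIP relative to input. All 3 libraries were compared with the same single input, so an input value that is low by chance raises the percentile in all of them, and their agreement does not measure the error of the input. For this reason the percentile of the ChIP value per kb of peak, which does not use the input, is given beside the main one. With 3 libraries against 1 input, and peaks chosen for their excess over input, no test was run, and every comparison is a description.

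H3K9me3 is the classical mark of heterochromatin. SUV39H1, SUV39H2 and SETDB1 write it, and HP1 proteins bind to it and compact the chromatin. In mammals it silences transposable elements, to which KRAB zinc-finger proteins guide SETDB1 through the adaptor TRIM28, and it also covers the clusters of zinc-finger genes and the silent alleles of imprinted control regions. At the latter, the zinc-finger protein ZFP57 binds the hexamer TGCCGC when it is methylated. In the colon crypt, stem cells at the base give rise to absorptive and secretory cells, so the mark is read here as an average over cells of different stages.

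The sequences of 4 regions show the range of DNA under these peaks. They were read from the GRCm38.p6 RefSeq sequence, plus strand, and chosen after their values were seen, since a single peak of 300 bp had at least 10 input reads. The pair shown first is the central 300 bases of the peaks with the highest and the lowest mean percentile among peaks with at least 10 input reads, with each CpG in capitals. The highest lies at chr9:12137701-12138000, in no annotated gene, and holds 13 CpG. The lowest lies at chr8:44986351-44986650, in an intron of *Fat1*, and holds 3 CpG.
Highest: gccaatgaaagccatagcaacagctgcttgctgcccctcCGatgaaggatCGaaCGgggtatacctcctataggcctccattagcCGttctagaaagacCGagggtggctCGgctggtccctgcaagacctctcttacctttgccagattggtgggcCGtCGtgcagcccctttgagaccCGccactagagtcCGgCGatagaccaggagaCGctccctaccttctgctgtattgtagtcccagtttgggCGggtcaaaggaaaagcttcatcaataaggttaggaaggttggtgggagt
Lowest: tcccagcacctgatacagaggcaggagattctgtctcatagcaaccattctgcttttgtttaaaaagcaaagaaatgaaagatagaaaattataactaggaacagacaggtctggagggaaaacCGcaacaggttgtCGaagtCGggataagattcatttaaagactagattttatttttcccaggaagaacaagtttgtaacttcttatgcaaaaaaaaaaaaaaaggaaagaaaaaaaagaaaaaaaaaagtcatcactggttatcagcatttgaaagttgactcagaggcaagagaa
The other pair is taken from peaks at the imprinted genes *Mest* and *H19*, with TGCCGC or its complement GCGGCA in capitals. Each is a stretch of 300 bases outside annotated UTRs with the most hexamers in its peak, at chr6:30737401-30737700 in an intron of *Mest* and at chr7:142580031-142580330 upstream of *H19*.
Mest: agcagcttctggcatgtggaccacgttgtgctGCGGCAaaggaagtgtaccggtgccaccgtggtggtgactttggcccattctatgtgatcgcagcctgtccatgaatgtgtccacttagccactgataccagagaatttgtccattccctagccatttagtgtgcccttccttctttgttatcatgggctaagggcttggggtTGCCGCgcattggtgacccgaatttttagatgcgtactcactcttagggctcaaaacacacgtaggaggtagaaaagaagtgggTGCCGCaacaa
H19: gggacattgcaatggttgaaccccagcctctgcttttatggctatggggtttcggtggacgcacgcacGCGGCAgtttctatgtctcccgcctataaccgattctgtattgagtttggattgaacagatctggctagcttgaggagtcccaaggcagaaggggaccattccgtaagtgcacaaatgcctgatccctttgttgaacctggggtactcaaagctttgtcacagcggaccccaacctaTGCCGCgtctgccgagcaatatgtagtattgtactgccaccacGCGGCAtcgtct
Both stretches hold 3 hexamers, beside 11 CpG in the *Mest* stretch and 15 in the *H19* stretch. Searched on both strands, the hexamer occurred at 81.0 per Mb over all peaks and 63.4 per Mb over the genome, and 2.29% of the central 300 bases of all peaks held at least 1. A match is a description of the sequence and not a binding site.

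Sequencing depth was low at most peaks. The median peak held 15, 19 and 20 reads in WT replicates 1, 2 and 3, counted from the steps of the deposited values, and 10 reads in the WT input, which had 733413 reads over all peaks. At 946 peaks the input had at most 1 read, and 28561 peaks had at least 10. Agreement between libraries rose with peak width. Spearman's rho of ChIP per kb between pairs of libraries was 0.061 to 0.070 over the 22235 peaks under 1 kb, 0.220 to 0.316 over the 28008 peaks of 1 to under 3 kb, 0.698 to 0.735 over the 3232 peaks of 3 to under 10 kb and 0.907 to 0.940 over the 286 peaks of at least 10 kb. These are correlations across peaks, which share the peak set and are not independent replicates. By rank, a single narrow peak was thus poorly reproduced between these libraries and a broad domain well. The median SD of a peak's log2 value over the 3 libraries fell from 0.37 in the narrowest class to 0.08 in the widest. The values were matched to one distribution, which gives peaks of equal rank the same value, and the part of this matching in the fall was not tested.

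Broad peaks stood highest by percentile. Their width was set by the peak calls on these same libraries together with the KO ones, so width and level are not independent. The part of this in the differences below was not tested. Peaks ranged from 300 to 233100 bp with a median of 1050 bp and together covered 78.2 Mb, or 2.95% of the known bases of the genome. The 286 peaks of at least 10 kb made up 7.37% of all peak bases. Their median percentile relative to input was 83.0 ± 0.71 (SD, n = 3), compared to 56.2 ± 1.47 for peaks under 1 kb, 45.2 ± 0.44 for 1 to under 3 kb and 53.1 ± 1.74 for 3 to under 10 kb. Per kb and without the input, the broad peaks had a median percentile of 91.2 ± 1.07 (SD, n = 3). The difference between the widest and the narrowest class was 26.3, 27.7 and 26.5 percentile points in WT replicates 1, 2 and 3. The highest 10% in each of the 3 libraries held 2515 peaks, 4.68% of all, and 77 of the 286 broad peaks (26.9%). By ChIP per kb the same count was 814 peaks, 1.51% of all, and 129 of the broad peaks (45.1%). Among peaks with at least 10 input reads the count was 1254, or 4.39%, and 149 of the broad peaks (52.1%).

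**Figure D1:**
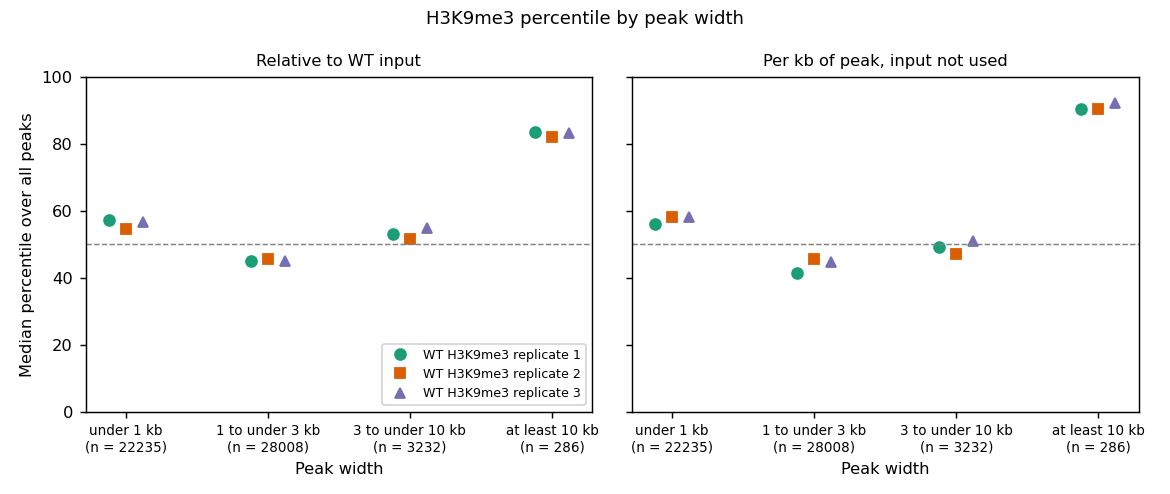
Median percentile of the WT H3K9me3 value in each library (points, n = 3 libraries) by peak width class, relative to WT input at left and per kb of peak without the input at right, on an axis from 0 to 100 with 50 dashed. The peaks of at least 10 kb sit above 80 in all 3 libraries in both panels, and those of 1 to under 3 kb sit below 50.

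At peaks under 1 kb the median input was 6 reads. Their median percentile by ChIP per kb was 57.5 ± 1.24 (SD, n = 3), close to that relative to input, while the share in the highest 10% of all 3 libraries was 7.85% relative to input and 1.57% by ChIP per kb, against 4.68% and 1.51% of all peaks. Restricting to peaks with at least 10 input reads kept 2469 narrow peaks, and their median percentile was then 23.5 ± 1.01 (SD, n = 3). Such a filter keeps the narrow peaks whose input happened to be high, and the difference between the widest and narrowest class became 70.7 ± 0.91 percentile points. The order of the classes between 1 and 10 kb and above held in both sets, with 50.4, 68.2 and 94.2 in the restricted one.

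The 5 widest peaks lay over genes, and the widest over *Arl15*, which codes for a small GTPase of the ARF-like family. It spans chr13:113807101-114040200, 233100 bp of which 0.242% is exon, and had a percentile of 92.9, 93.5 and 93.4 in WT replicates 1, 2 and 3 with 2085 input reads. Its log2 value was 12.92 in every library, which is the top of the matched distribution and so carries no spread. A further peak of 121350 bp at chr13:114046201-114167550 over the 3′ part of *Arl15* had a mean percentile of 81.6 ± 6.03 (SD, n = 3). *Tiam1*, a guanine nucleotide exchange factor for RAC1, held the next in width at chr16:89781001-89878200 with log2 values of 11.21, 11.09 and 11.17 and a percentile of 84.5 ± 2.23 (SD, n = 3). At *Apbb2*, which codes for an adaptor that binds the amyloid precursor protein, the peak at chr5:66521551-66610950 had log2 values of 10.92, 11.02 and 11.02 and a percentile of 77.0 ± 2.83 (SD, n = 3). These 4 were high in every library. The peak of 82200 bp over *Tcf4*, a basic helix-loop-helix transcription factor gene, at chr18:69420601-69502800 was low, with a percentile of 13.7, 6.98 and 12.1 in WT replicates 1, 2 and 3 and 751 input reads.

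Width alone did not set the level. The mean percentile of the 286 broad peaks ran from 0.0639 to 97.5, with 87 above 90 and 10 below 10. The low ones included broad peaks at *Bach1*, *Cdyl2*, *Fat1*, *Grip1*, *Tcf4*, *Trio*, *Vil1* and *Wwox*. Of the broad peaks, 202 (70.6%) had a gene within 5 kb, compared to 29.2% of all peaks. The closest gene of 63 broad peaks was a *Zfp* gene, while 525 of all 53761 peaks were listed for a protein-coding *Zfp* gene. A wider peak reaches a gene more easily, and the part of width in these counts was not tested. Broad peaks with a gene nearby had a median percentile of 85.6 ± 0.77 (SD, n = 3), compared to 70.4 ± 0.71 for the 84 without one.

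**Figure D2:**
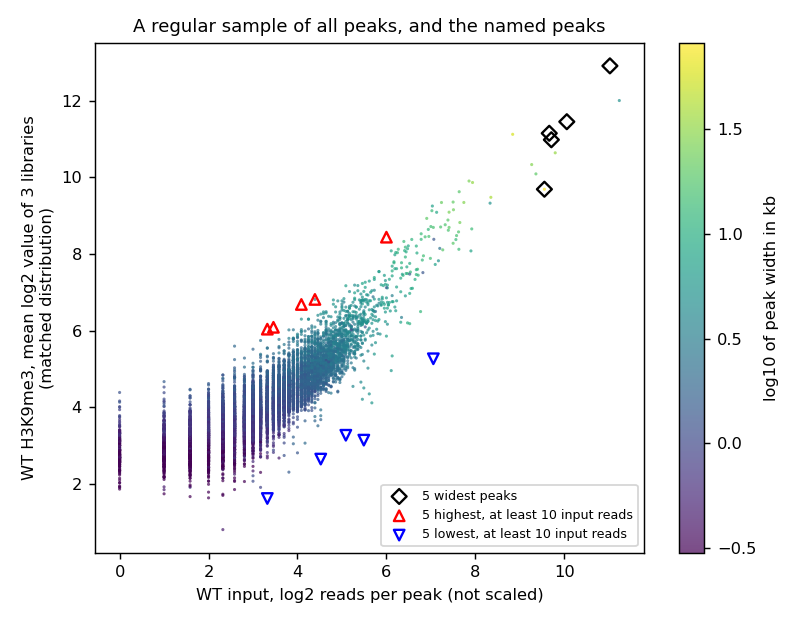
Mean log2 value of the 3 WT H3K9me3 libraries against the log2 reads of the WT input for a regular sample of all peaks, coloured by log10 of width, with the 5 widest, 5 highest and 5 lowest named peaks as open symbols. ChIP rose with input because wide peaks hold more reads of both, and the 5 lowest peaks lie far below the other peaks with the same input.

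The 5 highest peaks with at least 10 input reads were 3450 to 10200 bp wide, between the narrow and the very broad peaks. The highest, at chr9:12136051-12139650 and 1102957 bp from the nearest protein-coding gene *Jrkl*, had log2 values of 5.88, 6.18 and 6.05 and a percentile of 98.4 ± 0.33 (SD, n = 3). It is rich in CpG, with 37.2 per kb against 8.87 over all peak bases, as its printed sequence shows. *Zfp182*, a KRAB zinc-finger gene on X, held the next (chrX:21033601-21038250), with 6.42, 6.06 and 5.77 and a percentile of 98.0 ± 0.90 (SD, n = 3). These 2 peaks had only 10 and 11 input reads, 2.78 and 2.37 reads per kb, and their percentile by ChIP per kb was 67.3 and 39.6, so their rank turned on the low input. The others stayed high by ChIP per kb. They were an intergenic peak 9059 bp from *Errfi1* (chr4:150877951-150881400, log2 values 6.53, 6.91 and 6.60), an intergenic peak of 10200 bp near *Psg18*, a pregnancy-specific glycoprotein gene (chr7:18379651-18389850, log2 values 8.51, 8.39 and 8.42), and a peak over exon and intron of *Tcfl5* (chr2:180641401-180645150, log2 values 6.84, 6.88 and 6.72), a gene for a transcription factor of the testis. Their percentiles by ChIP per kb were 97.0, 98.9 and 97.6. CpG content differed among the named peaks of both ends, from 47.2 per kb at *Tcfl5* to 5.81 at *Zfp182* among the highest, and from 36.7 at *Mt1* to 10.6 at *Vil1* among the lowest.

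The 5 lowest peaks with at least 10 input reads all lay over genes. At the intron of *Fat1*, an atypical cadherin gene, the peak at chr8:44984401-44988600 held 9, 7 and 12 reads in WT replicates 1, 2 and 3 against 45 input reads. The peak over *Vil1*, which codes for villin of the brush border and whose promoter drives the Cre of the KO mice, spans chr1:74401501-74415600 and held 50, 34 and 38 reads against 133. *Bach1* (chr16:87728551-87731700), a transcriptional repressor gene of the heme response, held 11, 9 and 10 reads against 34. At the metallothionein gene *Mt1* (chr8:94178851-94180950) there were 7, 8 and 5 reads against 23. *Bcl11b* (chr12:107976751-107977650), a zinc-finger gene of T cell development, had 2, 3 and 5 reads against 10. The highest percentile of any of them in a WT library was 0.145, their mean percentiles by ChIP per kb were at most 0.071, and all 3 WT libraries held fewer reads than the input although the median peak held more. The lowest 10% in each of the 3 libraries held 407 of the 28561 peaks with at least 10 input reads, or 1.43%. As the peak list was made with KO libraries too, presence in it does not show that WT crypts carry H3K9me3 there.

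H3K9me3 peaks lay mostly outside genes. Of the peak bases, 63.6% were intergenic in GENCODE vM21, compared to 54.0% of the genome, 32.0% were intronic compared to 41.3%, and 4.48% were exonic compared to 4.84%. Bases within 1 kb of the start of a protein-coding gene made up 0.589% of peak bases and 1.56% of the genome. By the authors' annotation, 15680 peaks (29.2%) had a gene within 5 kb, of which 12851 overlapped it, 1500 lay upstream and 1329 downstream. Their median percentile was 51.0 ± 0.71 (SD, n = 3), and that of the 38081 peaks with no gene was 49.6 ± 0.45. The difference was 0 in WT replicate 1 and 1.96 and 2.04 in replicates 2 and 3, so it was about as large as its spread of 1.15. Among peaks with at least 10 input reads it was 6.02 ± 1.91 (SD, n = 3), and peaks over an exon stood at 59.2 ± 0.53, compared to 50.4 ± 1.25 for peaks in introns and 48.4 ± 0.72 outside genes. Of these exonic peaks 12.02% were in the highest 10% of all 3 libraries, against 4.39% of all such peaks. Exonic peaks were also wider, with a median of 2100 bp against 1500 bp in both other classes.

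Among the gene families listed, zinc-finger genes had the largest share of genes with a peak. Of 394 protein-coding *Zfp* genes, 223 (56.6%) had a peak within 5 kb, compared to 4612 of 21938 protein-coding genes (21.0%), and peaks covered 16.1% of their gene bodies, compared to 2.34%. The median percentile of their 525 peaks was 75.2, 72.7 and 73.2 in WT replicates 1, 2 and 3, and 18.5% of them were in the highest 10% of all 3 libraries. Per kb the median was 68.2 ± 2.14 (SD, n = 3), and 16.4% were in the highest 10%, against 1.51% of all peaks. Along the gene, coverage rose from 4.22% of bases in the 5′-most of 10 equal bins to 25.8% in the 3′-most, where the exon coding for the zinc fingers usually lies. Over all protein-coding genes it stayed between 1.99% and 2.55%.

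Of the 4 *Zfp* genes with the most peak bases, 3 belong to clusters. *Zfp943* on chromosome 17 had 7 peaks of 53400 bp in all, the widest at chr17:21975001-22009050 with log2 values of 9.92, 10.00 and 10.03 and a percentile of 93.7 ± 1.09 (SD, n = 3). *Zfp981* on chromosome 4 had peaks over 81.1% of its body, and its widest, chr4:146511601-146541750, had log2 values of 10.16, 10.29 and 10.42. That peak stood at 99.6 by ChIP per kb but at 63.3 relative to input, as it held 617 input reads. For *Zfp984* on the same chromosome, with 77.3% of its body in peaks, the widest (chr4:147771301-147796800) stood at 93.8 by ChIP per kb and 62.4 relative to input. Input was dense in both windows of 1 Mb that hold these genes, at 14.8 and 13.9 reads per kb against 9.37 outside the *Zfp* clusters. The part of this dense input in the result was not tested. The 45 peaks of *Zfp536*, a gene expressed in neurons that lies outside these clusters, had a median percentile of 42.5.

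**Figure D3:**
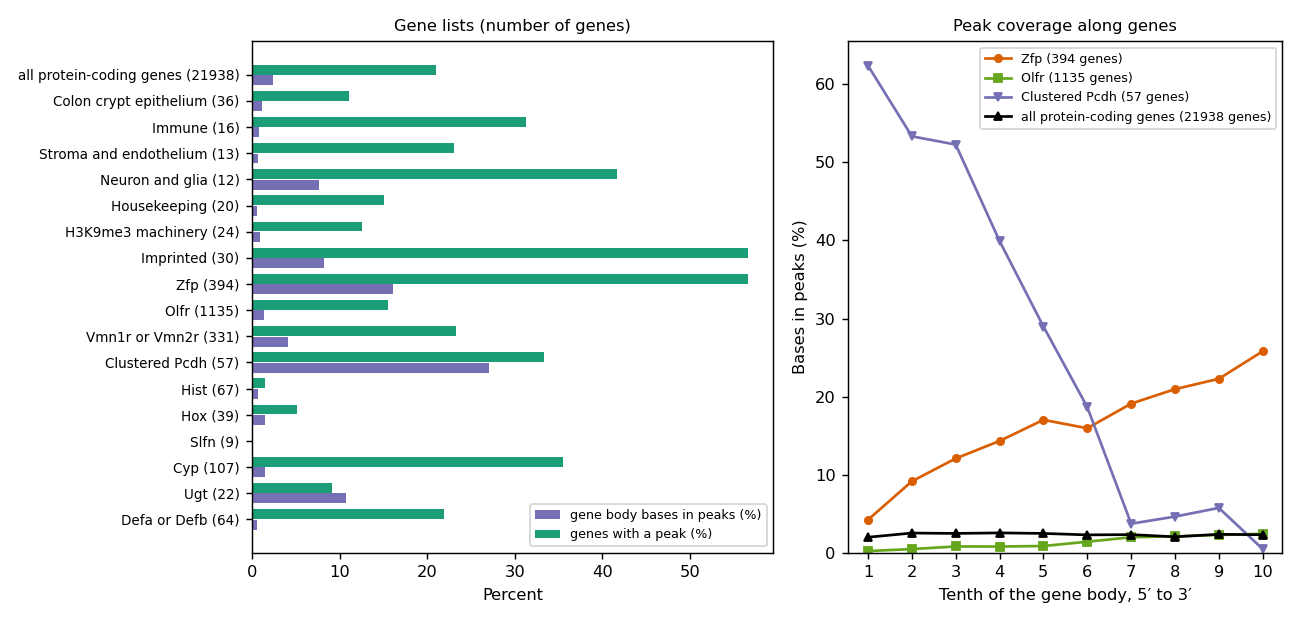
At left, the percent of genes with a peak within 5 kb (green) and of gene body bases in peaks (purple) for each gene list, with the number of genes in brackets, and at right the percent of bases in peaks in 10 equal bins along the gene body from 5′ to 3′. *Zfp* genes stand at 56.6% with a peak and rise to 25.8% in the 3′-most bin, while clustered *Pcdh* genes fall from 62.4% and all protein-coding genes stay near 2%.

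Zinc-finger clusters also stood out by position. In the 38 windows of 1 Mb with 3 or more *Zfp* genes, 1.43% of all windows, the median share of bases in peaks was 7.67%, compared to 1.50% in the other 2622 windows. They held 90 of the 286 broad peaks. Their peaks had a median percentile of 67.9, 65.3 and 65.0 in WT replicates 1, 2 and 3, compared to 49.3, 49.6 and 49.4 for peaks elsewhere, and by ChIP per kb of 60.6 ± 2.35 (SD, n = 3) compared to 49.7 ± 0.06.

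The 3 windows with the largest share of bases in peaks were not zinc-finger clusters. Peaks covered 73.5% of chr4:153000001-154000000, with 112 peaks of which 19 were broad. That window holds *Ajap1*, which codes for a protein of adherens junctions. It was followed by chr7:36000001-37000000 at 58.7%, where *Tshz3*, a zinc-finger homeobox gene, is the only protein-coding gene, and by chr10:119000001-120000000 at 43.0%, with *Grip1*, a scaffold gene of glutamate receptors, and *Cand1*. Dense coverage did not go with a high level there. Median percentiles were 56.2, 42.0 and 46.3 in the first window, 43.8, 38.6 and 35.8 in the second and 11.1, 5.62 and 7.39 in the third, for WT replicates 1, 2 and 3. Of the 15 most covered windows, the 6 with 3 or more *Zfp* genes had median percentiles of 61.1 to 72.7 and the 9 others of 8.03 to 68.2. The ranges of both groups overlap.

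Imprinted genes had peaks as often as *Zfp* genes. The listed imprinted genes were longer, with a median of 33.9 kb compared to 17.4 kb, and the part of gene length was not tested. Of 30 listed, 17 (56.7%) had a peak, compared to 21.0% of protein-coding genes and 10.2% of all GENCODE genes. Peaks covered 8.23% of the listed gene bodies, compared to 2.34% and 2.50%. The median percentile of the 31 peaks was 47.8 ± 2.35 (SD, n = 3) relative to input. It was 61.2 ± 3.46 by ChIP per kb, and 61.5 ± 2.63 (SD, n = 3) for the 29 of these peaks with at least 10 input reads ranked among such peaks. *Airn*, the antisense RNA that silences *Igf2r*, had the widest at chr17:12814051-12829950, with log2 values of 8.12, 8.39 and 8.38 and a percentile of 66.8 ± 9.33 (SD, n = 3). For *Peg3*, a zinc-finger gene expressed from the paternal allele, the peak at chr7:6724951-6733350 covers its 5′ end, holds 8 of the ZFP57 hexamers and had log2 values of 7.37, 7.56 and 7.50. At *Nespas*, the antisense RNA of the *Gnas* cluster, the widest peak (chr2:174294901-174301350) had 7.08, 6.89 and 6.87, and at *Grb10*, a growth inhibitor gene, the widest (chr11:12024751-12027300) had 5.73, 5.64 and 5.45. The *Mest* peak whose sequence is printed, chr6:30734251-30739950, holds 13 hexamers and had a percentile of 92.3, 90.3 and 83.1 in WT replicates 1, 2 and 3. Its rank by ChIP per kb was 69.3, with 34 input reads. The *H19* peak, chr7:142579801-142582200, lies where the imprinting control region of *H19* and *Igf2* is known to be and holds 6 hexamers. Its percentile of 69.4, 62.4 and 30.8 varied between libraries, with 37, 43 and 32 ChIP reads and 19 input reads.

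Other clustered families differed from the zinc-finger genes. Of 57 clustered protocadherin genes, which code for neuronal adhesion proteins, 19 had a peak, and 27.0% of their bases lay in peaks. Coverage fell from 62.4% in the 5′-most bin, where their alternative first exons lie, to 0.475% in the 3′-most; the genes of a cluster share their 3′ exons and overlap, so the same bases count for several of them. The median percentile of their 54 peaks was 59.4, 35.0 and 51.9 in WT replicates 1, 2 and 3, so the libraries differed, and it was 49.1 ± 6.41 (SD, n = 3) by ChIP per kb. The widest, which the authors' annotation lists for *Pcdhgc4* though it lies outside the GENCODE gene (chr18:37679851-37704450), had log2 values of 8.82, 8.84 and 8.81 and a percentile of 71.3 ± 1.40 (SD, n = 3). At *Pcdhb21* a peak of 14250 bp had a percentile of 69.3 ± 1.15 (SD, n = 3). Odorant receptor genes (*Olfr*) had a peak at 176 of 1135 (15.5%) with 1.34% of their bases in peaks, and vomeronasal receptor genes at 77 of 331 (23.3%) with 4.08%, compared to 21.0% of genes and 2.34% of bases over all protein-coding genes. The median percentiles of their peaks were 45.5 ± 0.78 and 54.9 ± 2.65 (SD, n = 3), at median gene lengths of 6.00 and 10.3 kb against 17.4 kb over all protein-coding genes. Single peaks lay apart from these medians, such as one at *Olfr212* (chr6:116502151-116506650) with a percentile of 92.9 ± 3.57 (SD, n = 3), and 76.4 ± 17.6 by ChIP per kb. The widest peak of *Vmn2r61*, of 8850 bp, had 65.0 ± 3.69.

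Among families of metabolism and defence, 38 of 107 cytochrome P450 genes (*Cyp*, 35.5%) had a peak, compared to 21.0% of all protein-coding genes. Peaks covered 1.50% of *Cyp* bases, compared to 2.34%, and the median percentile of the 58 peaks was 71.2 ± 4.21 (SD, n = 3). A peak near *Cyp3a41a* (chr5:145686601-145691850) had log2 values of 7.30, 7.25 and 7.29. The *Ugt* genes, which code for glucuronosyltransferases, had a peak at 2 of 22 (9.09%), but 10.8% of their bases lay in peaks, compared to 2.34% over all protein-coding genes. Each peak was listed for a single closest gene, so a peak over several overlapping genes counted for only 1 of them. The *Ugt* genes with a listed peak were *Ugt1a10* with 9 peaks, the widest at a percentile of 87.1 ± 4.74 (SD, n = 3), and *Ugt2b34* with 1. Defensin genes had a peak at 14 of 64 (21.9%), near the 21.0% of all protein-coding genes. Among their peaks, that of *Defb39* had a percentile of 6.91 ± 1.66 (SD, n = 3) and that of *Defb30* 72.0 ± 6.72. Histone genes had a peak at 1 of 67, *Hox* genes at 2 of 39, and none of the 9 *Slfn* genes had one. In these last 3 families at most 5.13% of genes thus had a peak, compared to 21.0% of all protein-coding genes. Their median gene length was 0.539, 3.49 and 13.4 kb, compared to 17.4 kb over all protein-coding genes. The part of gene length in these shares was not tested.

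Genes of the crypt epithelium had few peaks. Of 36 listed markers, 4 (11.1%) had a peak, *Vil1*, the tuft cell kinase gene *Dclk1*, the stem cell receptor gene *Lgr5* and *Lypd8*, and 1.08% of their gene bodies lay in peaks, compared to 21.0% of genes and 2.34% of bases over all protein-coding genes. Coverage was lower still over the immune (0.730%), stromal and endothelial (0.625%), housekeeping (0.568%) and H3K9me3 machinery (0.929%) lists. Low coverage was thus not particular to crypt genes, though coverage was 7.60% over the neuron and glia list and 8.23% over the imprinted list. The widest peak of *Lgr5*, chr10:115544101-115546050, had log2 values of 4.76, 4.96 and 4.65 in WT replicates 1, 2 and 3 and a percentile of 54.2 ± 10.6 (SD, n = 3), which is near the middle of all peaks. That of *Lypd8* had 57.7 ± 18.3 and that of *Dclk1* 41.2 ± 9.53. Immune markers had a peak at 5 of 16, among them *Klrb1c*, a natural killer receptor gene, whose widest peak (chr6:128776351-128780400) had log2 values of 7.39, 7.28 and 7.20, a percentile of 90.6 ± 1.46 (SD, n = 3) and 99.5 by ChIP per kb. The peak near *Fcgr3* had 78.9 ± 3.86 and that near *Cd8a* 75.1 ± 8.38, while *Itgam* had 56.7 ± 21.7. Stromal and endothelial markers had a peak at 3 of 13, with percentiles of 36.6 at *Pdgfrb*, 31.7 at *Pecam1* and 57.8 at *Col3a1*. H3K9me3 is not expression, so a peak at a marker neither shows nor denies a cell type, and the crypt label could not be checked by marker levels in these libraries.

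Neuronal genes with peaks were long and at low levels. Of 12 listed neuron and glia genes, 5 had a peak and 7.60% of their bases were covered, where 21.0% of all protein-coding genes had a peak and 2.34% of their bases were covered. The median gene of this list was 109 kb long, compared to 17.4 kb over all protein-coding genes. *Csmd1*, a large complement-related gene, had 202 peaks over 17.8% of its body, *Nrxn3*, which codes for a presynaptic adhesion protein, 59 and the glutamate receptor gene *Grik2* 53. The median percentile over the 322 peaks was 38.5, 34.8 and 34.4 in WT replicates 1, 2 and 3, below the middle in every library, and by ChIP per kb 34.3 ± 1.29 (SD, n = 3). Housekeeping genes had a peak at 3 of 20 (15%), near that share, *Tbp*, *Ppia* and *Gusb*, each under 2 kb wide, with a median percentile of 28.5 ± 9.81. By ChIP per kb the same 3 peaks stood at 79.7 ± 14.4. The genes of the H3K9me3 machinery had a peak at 3 of 24 (12.5%). These were *Cbx3*, which codes for HP1 gamma, with 91.1 ± 3.24 (SD, n = 3) at a peak outside the gene (chr6:51487651-51489300), *Atf7ip*, which codes for a SETDB1 partner, with 83.0 ± 6.58, and *Setdb2* with 49.4 ± 9.73. With so few members these lists describe single peaks rather than a group.

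Peaks were unevenly spread over chromosomes. Autosomes had 11.3 peaks per Mb on chromosome 19 to 29.1 on chromosome 14, whereas X had 2.90 (474 peaks) and Y 0.806 (71 peaks). The share of bases in peaks was 1.62% to 4.17% on autosomes, 0.245% on X and 0.0807% on Y. No peak was found in 51 of 167 windows of X and in 79 of 90 windows of Y, against at most 4 windows on any autosome. Repeats, taken as soft-masked bases, made up 46.8% of X and 96.3% of Y, compared to 30.6% to 35.8% of autosomes. Reads under a mapping quality of 20 were dropped, and male cells carry a single X and Y. The part of these in the low counts was not tested, and a missing peak there does not show that the mark is absent. Chromosomes 4, 17, 7 and 13 held 48, 39, 38 and 33 broad peaks, and these include the zinc-finger clusters described above. The median percentile of autosomes ran from 43.8 on chromosome 14 to 57.4 on chromosome 19, and among autosomes chromosome 12 had the largest share of peaks in the highest 10% of all 3 libraries relative to input, 8.04%. By ChIP per kb its share was 1.43%, below that of all peaks, and chromosome 17 led the autosomes with 2.50%.

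The few X peaks stood high relative to input, with a median percentile of 79.2, 87.9 and 80.1 in WT replicates 1, 2 and 3, compared to 49.7, 49.7 and 49.8 on autosomes. Male cells carry a single X, and the input was thinner there, at 7.32 reads per kb compared to 9.39 on autosomes, with a median of 4 reads per X peak. Per kb the X median was 50.5, 77.3 and 58.2, so the difference from autosomes was 12.2 ± 13.7 points (SD, n = 3) and no larger than its spread. The 45 X peaks with at least 10 input reads stood at 53.9, 89.7 and 59.6. WT replicate 2 was the highest on X by each of these measures. The Y peaks stood at 87.7, 89.2 and 86.7 relative to input and 64.9, 69.1 and 59.7 by ChIP per kb.

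**Figure D4:**
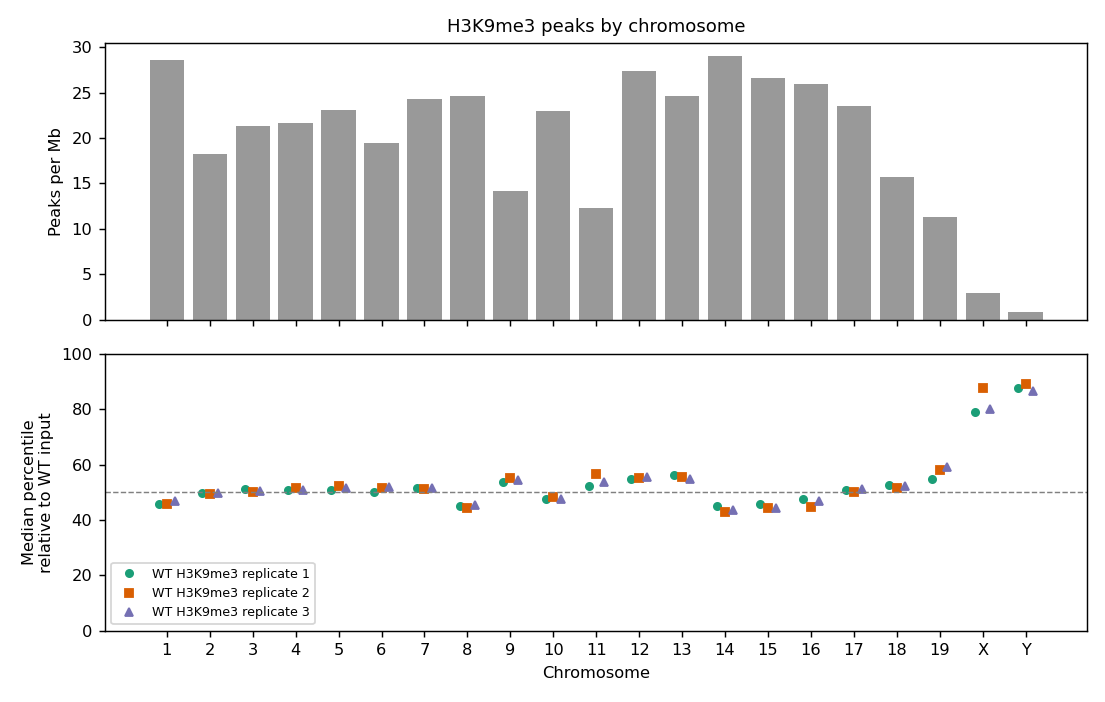
Peaks per Mb of known bases by chromosome (bars, top) and the median percentile relative to WT input in each of the 3 WT libraries (points, bottom, 50 dashed). X and Y have the fewest peaks per Mb, 2.90 and 0.806, and the highest median percentiles, above 79 in every library. They also have the largest share of soft-masked bases, 46.8% and 96.3%.

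*Mid1*, which codes for a ubiquitin ligase and spans the pseudoautosomal boundary in C57BL/6 mice, differed between WT libraries at every peak. At all 8 of its peaks WT replicate 1 was the lowest and WT replicate 2 the highest. The widest, chrX:169978351-169985550, had log2 values of 6.25, 8.84 and 7.89 and a percentile of 1.19, 95.2 and 68.3 in WT replicates 1, 2 and 3, with 111 input reads. At chrX:169993351-169995300 the values were 3.65, 7.21 and 5.22. The median difference between replicates 2 and 1 was 2.06 on the log2 scale over the 8 peaks, compared to -0.0017 over all peaks and 0.18 over the other X peaks. The one broad Y peak, chrY:90797101-90814200, had the same order, with 7.09, 9.94 and 8.70. These peaks were looked at after their values were seen, and the cause of the order was not tested.

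**Figure D5:**
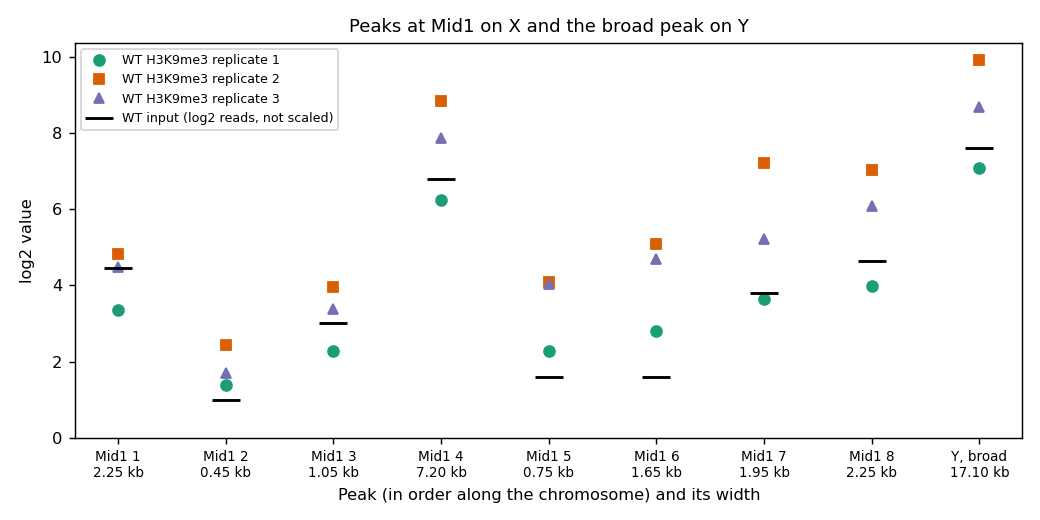
Log2 values of the 3 WT H3K9me3 libraries (coloured symbols) and of the unscaled WT input (black dashes) at the 8 *Mid1* peaks on X and the broad peak on Y, with the width of each peak under its name. WT replicate 2 lies at the top and WT replicate 1 at the bottom of the 3 ChIP values at every peak, 6.25 against 8.84 at the widest *Mid1* peak.

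The largest ranges among the 3 WT libraries were at narrow peaks with few reads. At chrX:31233901-31234200 the counts were 4, 21 and 1 reads, at chr6:20347801-20348250 they were 14, 13 and 1, and at chr16:66320551-66320850 they were 10, 1 and 16, against 2, 4 and 4 input reads. Of the 509 peaks with a range of at least 2 on the log2 scale (0.947% of all), 475 were under 1 kb wide and 42 had at least 10 input reads. Their percentiles in single libraries ran from 0.026 to 99.4, so these 3 peaks had no stable level.

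Sequence content moved with the level to a small degree. Repeats, taken as the soft-masked bases of the reference, made up 39.7% of peak bases and 36.4% of the genome. Peaks in the upper tercile of repeat share had a median percentile of 57.3, 56.7 and 57.4 in WT replicates 1, 2 and 3, compared to 43.9, 43.3 and 42.6 in the lower tercile, a difference of 13.9 ± 0.82 points (SD, n = 3). By ChIP per kb the difference was 9.07 ± 1.23. Reads in repeats are lost when they map to several places, in ChIP and input alike, and reads under a mapping quality of 20 were dropped, so young repeats that are nearly identical between copies are not seen here. GC content was 42.2% in peaks and 41.7% in the genome. The upper tercile by GC share was 8.06 ± 0.25 points (SD, n = 3) above the lower, and 7.60 ± 0.72 by ChIP per kb. CpG occurred at 8.87 per kb in peaks and 8.26 in the genome, and the upper tercile by CpG had a median percentile of 55.2 ± 0.32 compared to 46.7 ± 0.05 (SD, n = 3) in the lower. Without the input the CpG terciles were closer, at 52.7 ± 1.07 and 48.6 ± 0.40 (SD, n = 3) by ChIP per kb. All of these differences relative to input had the same sign in each WT library.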

How the data were processed

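H3K9me3 ChIP-seq of colon crypts was analysed in 3 WT libraries and 1 WT input; KO columns were not used. The authors trimmed reads with Trim Galore (0.6.1 per the labels), mapped them to GRCm38 with Bowtie2 2.3.2, dropped duplicates and reads under a mapping quality of 20, and used the MACS peak finder of SeqMonk on all ChIP libraries together (fragment size 300 bp, p threshold 1e-05). The labels give single reads of 50 bp, whereas the methods describe paired reads. The deposited values are log2 read counts per peak. The ChIP columns were matched by the authors to a shared distribution, which sets all libraries to one spread of values, and the input is unscaled with 0 and 1 read both given as 0. All input values were whole reads within 0.1%. ChIP reads were recovered as the order of distinct values, up to 100 reads, where the lowest step means at most 1 read. A second deposited table holds the authors' own comparison of KO with WT (p-values and fold changes) and was not used.

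Per library, log2 ChIP minus log2 input was ranked over all 53761 peaks, and group medians are given per library with mean ± SD (n = 3). No test was run. Gene models were GENCODE vM21 (98.2% of the peaks with a gene matched by ID), and sequence and soft-masking came from the RefSeq GRCm38.p6 assembly. Windows of 1 Mb needed 500000 known bases. Named were the 5 widest, 5 highest and 5 lowest peaks and the 3 with the largest range, the 3 most covered windows and, per list, up to 4 genes with the most peak bases; *H19*, *Mest*, *Mid1* and the Y peak were added after their values were seen. Members, lists and rules were chosen with earlier results of these data known. Alternatives left out each library, required 10 input reads, replaced input by width, ranked within width classes or changed limits. The ranking was tested on simulated data. Python 3.11.15, numpy 2.4.6, pandas 2.3.3 and matplotlib 3.10.9 were used.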

Additional observations from a re-analysis of the deposited data

How the results depend on the processing

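No paired analysis was possible because the single input carries no replicate number and no test was run. Leaving out each WT library in turn could not change the sign of a mean difference, as no single library had a negative one. The highest 10% of all remaining libraries then held 3224 to 3326 peaks. The mean differences were 26.4 to 27.1 percentile points for width, 0.98 to 2.00 for genes, 29.9 to 34.3 for X, 13.4 to 14.2 for repeats and 7.97 to 8.21 for GC. With at least 10 input reads the count was 1254, and the differences were 70.7 for width, 6.02 for genes, 17.7 for X, 13.04 for repeats and 10.6 for GC. With ChIP per kb in place of the input the count was 814 and the differences 33.6, 5.58, 12.2, 9.07 and 7.60 in the same order. Ranks within width classes gave 26.8 for X and 8.34 for GC, gave a count of 2489, and left genes and repeats within the spread of the 3 libraries. The highest 5% in place of 10% held 1270 peaks. Broad peaks from 5 kb gave 13.03 for width, and counting only peaks that overlap a gene gave 0.083 for genes. The central 300 bp gave 11.0 for repeats and 4.96 for GC. Combining at least 10 input reads with ranks within width classes, which was chosen after seeing the data, gave 4.68 for genes, 16.6 for X and 9.06 for GC. No difference changed sign, and apart from the fewer peaks under a stricter limit the cause of these shifts was not tested. Of 87 values compared for the 18 named peaks, 68 stayed within the SD of the 3 libraries. Those with 1 library left out could not do otherwise, as dropping 1 of 3 values moves a mean by less than their SD. The 19 that moved all came from requiring at least 10 input reads or from ChIP per kb. With 1 input and a median of 10 input reads per peak, the error of the input could not be measured, and narrow peaks have the fewest input reads.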
